A study of Homo sapiens with 12 samples.

Results

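The 8 integrin beta subunit genes ITGB1 to ITGB8 were followed in 2 established Ewing sarcoma cell lines, TC32 and SKNMC. Members were all probes of the bead array whose platform gene symbol was one of these genes, which gave 19 probes among the 47319 of the array. A probe counted as detected, and entered the tests, where its detection p-value was under 0.05 on at least 3 of the 12 arrays. By this rule 9 probes of 4 genes, ITGB1, ITGB2, ITGB5 and ITGB7, were detected, among 12171 detected genes in all. ITGB3, ITGB4, ITGB6 and ITGB8 did not meet it.

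Each line was given 40 µM NU7441, which blocks DNA-PK (the kinase that PRKDC encodes, used in repair of DNA double-strand breaks), or 0.1% (v/v) DMSO vehicle, for 48 h. There were 3 arrays in each of the 4 groups (TC32 NU7441, TC32 vehicle, SKNMC NU7441 and SKNMC vehicle). All samples were bulk total RNA of an unselected culture, in which fewer cells of a kind and less RNA per cell cannot be told apart. The labels do not say whether replicate arrays came from independent cultures, and the p-values may therefore rest on technical spread alone. The titles of the 6 vehicle samples end in an unexplained (2) that is missing from those of the NU7441 samples, and whatever it denotes cannot be told apart from the treatment.

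Integrins are receptors made of an alpha and a beta subunit that hold cells to the extracellular matrix or to other cells. The beta subunit's short tail inside the cell recruits talin, kindlins and further adaptors that connect the receptor to actin. ITGB1 pairs with many alpha subunits and binds collagens, laminins and fibronectin, ITGB3, ITGB5, ITGB6 and ITGB8 pair with ITGAV and bind matrix proteins such as vitronectin or latent TGF-beta, and ITGB4 pairs with ITGA6 in the hemidesmosomes of epithelia. ITGB2 and ITGB7 are best known from leukocytes, where ITGB2 pairs with ITGAL, ITGAM, ITGAX or ITGAD and binds ICAM proteins, and ITGB7 pairs with ITGA4 or ITGAE. Ewing sarcoma carries a fusion of EWSR1 with an ETS transcription factor gene, most often FLI1.

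The DNA just before the starts of the detected genes is shown because the fusion of these tumours joins an ETS factor, a class of protein that binds GGAA-type sites. The set of RefSeq promoters at hand (GRCh38.p14) held entries for 5 of the 8 genes, ITGB1, ITGB5, ITGB6, ITGB7 and ITGB8, with 8 entries in all. No such entry was at hand for ITGB2, ITGB3 and ITGB4. Each line below gives the 250 bases before one annotated start, on the gene's own strand, and which start these cells use was not measured. Capitals mark matches, on either strand, to the motifs searched, which were CCGGAAGT (ETS consensus), GGAAGGAA (tandem ETS core), GGGCGG (GC box), TGANTCA (AP-1 site) and CCAAT.
ITGB5, chr3:124901419-124901668, minus strand: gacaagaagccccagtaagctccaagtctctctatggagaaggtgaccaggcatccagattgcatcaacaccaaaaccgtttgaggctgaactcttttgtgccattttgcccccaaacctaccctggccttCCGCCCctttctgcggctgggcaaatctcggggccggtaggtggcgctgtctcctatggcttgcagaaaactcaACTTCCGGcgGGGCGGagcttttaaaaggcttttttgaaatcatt
ITGB5, chr3:124887366-124887615, minus strand: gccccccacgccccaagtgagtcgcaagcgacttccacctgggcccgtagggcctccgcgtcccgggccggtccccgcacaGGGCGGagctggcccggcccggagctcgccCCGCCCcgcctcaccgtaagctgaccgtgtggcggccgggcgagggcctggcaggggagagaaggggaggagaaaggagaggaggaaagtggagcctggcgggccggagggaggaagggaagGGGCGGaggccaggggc
ITGB1, chr10:32958231-32958480, minus strand: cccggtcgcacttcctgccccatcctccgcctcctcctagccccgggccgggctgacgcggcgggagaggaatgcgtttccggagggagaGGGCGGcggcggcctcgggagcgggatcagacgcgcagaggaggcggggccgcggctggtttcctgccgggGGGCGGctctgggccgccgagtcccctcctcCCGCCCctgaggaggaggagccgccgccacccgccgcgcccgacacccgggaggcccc
ITGB7, chr12:53207252-53207501, minus strand: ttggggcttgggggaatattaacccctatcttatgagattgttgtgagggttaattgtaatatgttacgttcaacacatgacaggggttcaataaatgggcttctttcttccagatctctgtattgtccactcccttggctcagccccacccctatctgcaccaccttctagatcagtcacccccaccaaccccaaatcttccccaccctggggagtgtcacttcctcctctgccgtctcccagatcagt
The first ITGB5 stretch held 1 match to the ETS consensus, read on the opposite strand 45 to 38 bases before the start, and 2 GC boxes, with no overlap between matches. An ETS consensus match was found in 3.42% of the 35116 RefSeq promoters, each searched over its own 250 bases before the start. The second ITGB5 stretch and that of ITGB1 held 3 GC boxes each, a motif found in 42.6% of all windows. None of the 5 motifs was found in the ITGB7 stretch, nor in the remaining entries of ITGB5 (chr3:124887685-124887934, GC content 56.4%) and ITGB1 (chr10:32935559-32935808, GC content 41.6%), which are not printed. The tandem ETS core, found in 3.06% of windows, and the AP-1 site, found in 6.57%, were in none of the 8 entries, and the CCAAT box, found in 32% of windows, was only in that of ITGB8. GC content was 75.2% and 78.4% in the second ITGB5 and the ITGB1 stretches, and 52.8% and 49.6% in the first ITGB5 and the ITGB7 stretches, against a median of 58% over all promoters.

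Between 17944 and 20148 probes were detected per array, at a detection p-value under 0.05 against the negative control beads. Of 14 Ewing sarcoma markers, 13 were detected. The treated SKNMC arrays differed among themselves. Over all genes, the correlation was 0.993 between replicates 2 and 3 but 0.959 and 0.958 between these and replicate 1. CES1, a carboxylesterase, read 11.96 on replicate 1 and 4.21 and 4.37 on replicates 2 and 3, on the normalized log2 scale used for all levels here, against 11.12 to 11.51 in SKNMC vehicle. RNA28SN5, a ribosomal RNA, read 4.33 on replicate 1 and 12.33 and 12.42 on replicates 2 and 3, against 4.17 to 4.50 in SKNMC vehicle. In TC32 it read 8.26, 9.33 and 12.69 under NU7441, against 4.86 to 5.13 under vehicle, so it was higher on 5 of the 6 NU7441 arrays than on any vehicle array. Other RNAs that normally lack a poly(A) tail were higher on SKNMC replicate 1 too. RN7SK read 8.23, 10.77 and 10.80 in SKNMC NU7441, against 6.61 to 6.77 in SKNMC vehicle, and replicate 1 lay 1.74 above the vehicle mean for RNU4-2 and 1.06 above it for RNA5S9. In TC32 NU7441, replicate 3 stood apart, with a correlation of 0.966 and 0.967 with replicates 1 and 2, against 0.989 between those. RN7SK read 8.66, 8.72 and 11.47 there, against 6.93 to 7.31 in TC32 vehicle. NCKAP1L, a haematopoietic actin regulator picked here after its values were seen because TC32 lacks it, read 8.51, 8.94 and 8.92 in SKNMC NU7441, against 8.55 to 8.89 in SKNMC vehicle. In TC32 it was not detected (4.13 to 4.34). VCAM1, also not detected in TC32, read 5.54, 4.78 and 4.61 in SKNMC NU7441, against 6.74 to 7.04 in SKNMC vehicle. Which line each array held was not tested. SKNMC results of the beta subunit genes are therefore given with all 3 treated arrays, with replicate 1 alone and without it. Those of other genes are given so in part, for single genes or as list medians. With replicate 1 alone the treated group has 1 array, whose spread is assumed to be that of the other groups. The part of the differences between these arrays in each result was not tested.

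**Figure D1:**
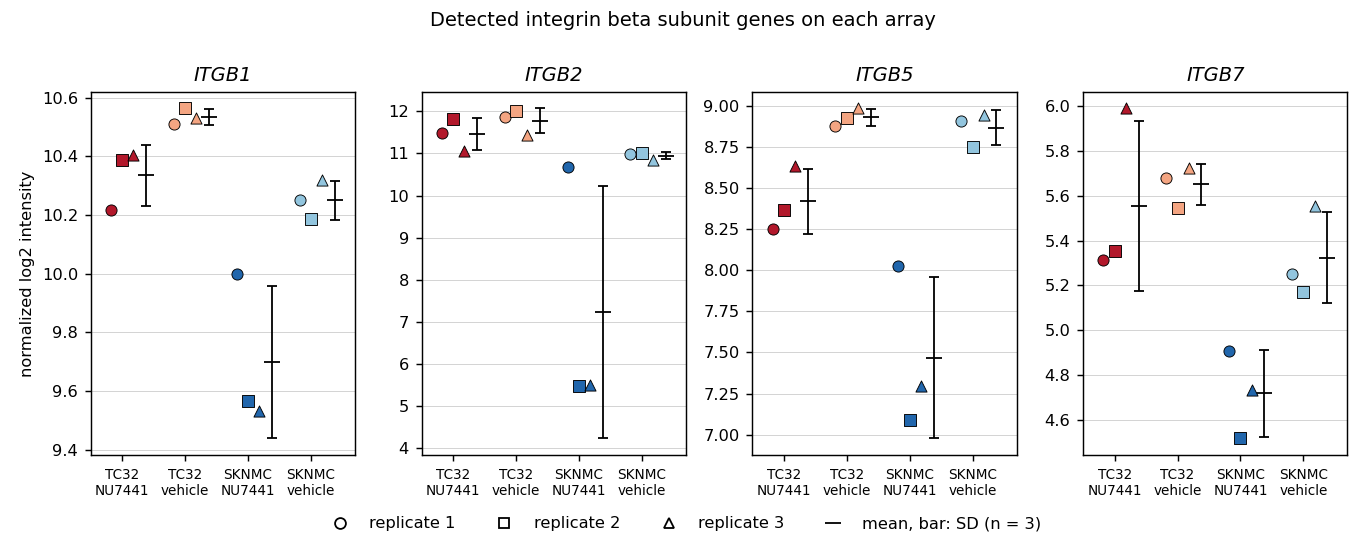
Normalized log2 intensity of the 4 detected beta subunit genes on each array (points, shaped by replicate), with the mean and SD of each group (bars, n = 3). Replicates 2 and 3 of SKNMC NU7441 lie apart from replicate 1 for ITGB2 (5.47 and 5.50, against 10.68), and every SKNMC NU7441 array lies below every SKNMC vehicle array in all 4 panels.

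ITGB5, the vitronectin receptor subunit that pairs with ITGAV, fell under NU7441 in SKNMC. Its level was 8.03, 7.09 and 7.29 on the SKNMC NU7441 arrays, against 8.91, 8.75 and 8.95 in SKNMC vehicle. In TC32 it was 8.25, 8.37 and 8.64 under NU7441, against 8.88, 8.93 and 8.98 under vehicle. The treated and vehicle arrays did not overlap in either line, and the lowest values were those of SKNMC replicates 2 and 3.

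The log2 fold change of ITGB5 was −1.40 ± 0.20 in SKNMC (SE from limma, 95% confidence interval −1.83 to −0.97, adjusted p = 0.000205). A gene was called at an adjusted p under 0.05 with a log2 fold change of at least 1 in size, so ITGB5 was called lower in SKNMC. In TC32 the change was −0.51 ± 0.20 (95% confidence interval −0.94 to −0.08, adjusted p = 0.0777), which was not called. Without TC32 NU7441 replicate 3 it was −0.62 (adjusted p = 0.0493), too small for a call. With replicate 1 as the only treated SKNMC array the change was −0.84 (adjusted p = 0.0170), too small for a call, and without it −1.68. Without normalization between arrays, or with the arrays scaled to one median, ITGB5 was also called lower in TC32 (−1.12 and −1.06). Those settings moved the median of all genes by −0.25 and −0.21 in TC32, where 10.7% and 9.29% of all genes were then called lower.

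Of the 5 ITGB5 probes, 4 were detected, and they did not respond alike. Probe 5 read 7.33, 7.40 and 7.71 in TC32 NU7441, against 8.71, 8.59 and 8.71 in TC32 vehicle. In SKNMC it read 7.43, 6.47 and 6.76 under NU7441, against 8.70, 8.84 and 8.28 under vehicle. On this probe ITGB5 was called lower in both lines, by −1.19 ± 0.22 in TC32 (adjusted p = 0.00160) and −1.72 ± 0.22 in SKNMC (adjusted p = 8.7e-05), adjusted over all probes by limma. The TC32 call of this probe was lost without background correction (−0.96) and in the submitters' table (−0.97). Probe 4 changed by −0.56 ± 0.18 in TC32 (adjusted p = 0.0431, too small a fold for a call) and by −1.17 ± 0.18 in SKNMC (adjusted p = 0.000456, called lower). Probe 3, detected on 7 of the 12 arrays with intensities of 76.5 to 88.3 near the detection limit, gave 0.00 ± 0.13 and −0.02 ± 0.13. Whether ITGB5 counted as called in TC32 therefore depended on the probe, whereas 3 of the 4 detected probes were called in SKNMC.

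ITGB2, the common subunit of the leukocyte beta2 integrins, was detected on all 12 arrays in these sarcoma lines. Its level was 10.68, 5.47 and 5.50 on the SKNMC NU7441 arrays, against 10.99, 11.002 and 10.85 in SKNMC vehicle. The deposited intensities behind the treated values were 1708, 100.9 and 102.6, against 1824 to 2020 in SKNMC vehicle. Replicates 2 and 3 lay far below the other arrays while still being detected, and replicate 1 lay just below the lowest vehicle array. In TC32 the level was 11.50, 11.81 and 11.06 under NU7441, against 11.87, 12.01 and 11.45 under vehicle, and these ranges overlapped.

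The log2 fold change of ITGB2 was −3.72 ± 0.94 in SKNMC (95% confidence interval −5.74 to −1.71, limma adjusted p = 0.00816), and it was called lower. The SD was 3.00 in SKNMC NU7441, against 0.09 in SKNMC vehicle, so the SE that the model shares between groups understates the spread in SKNMC and overstates it in TC32. Replicate 1 alone gave −0.26 (adjusted p = 0.622), which was not called, and leaving replicate 1 out gave −5.46. The difference of replicate 1 from the higher of replicates 2 and 3 was 5.18 for ITGB2, and 5 of 12171 genes (0.0411%) had one as large. In TC32 the change was −0.32 ± 0.94 (95% confidence interval −2.34 to 1.69, adjusted p = 0.855). From the TC32 arrays alone it was −0.32 ± 0.22 (adjusted p = 0.357), and without TC32 NU7441 replicate 3 it was −0.12.

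The second ITGB2 probe read 10.42, 4.69 and 5.04 in SKNMC NU7441, against 10.88, 10.93 and 10.98 in SKNMC vehicle. It showed the same split between replicate 1 and the other treated arrays, with a change of −4.21 ± 1.00 (limma adjusted p = 0.00655) in SKNMC and −0.51 ± 1.00 (adjusted p = 0.789) in TC32.

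No alpha partner of ITGB2 was detected beyond 1 array. ITGAM, ITGAX and ITGAD were detected on no array, and ITGAL on 1 SKNMC vehicle array. Among 22 leukocyte markers, 6 were detected on enough arrays to be fitted (CD14, CD68, CD79A, CORO1A, LCP1 and NCKAP1L). NCKAP1L was the highest of them in SKNMC vehicle (mean 8.69) and was not detected in TC32. The general leukocyte markers PTPRC and CD53 were detected on no array. The summed normalized intensity of those 6 was 686 to 949.8 in SKNMC NU7441, against 834 to 921 in SKNMC vehicle, and 379.9 to 647 in TC32 NU7441, against 443 to 460.3 in TC32 vehicle. Of the 6, LCP1, an actin bundler, was called lower in both lines (−1.51 in TC32 and −1.82 in SKNMC), and CD79A was called lower in SKNMC. CD68, a lysosomal protein, was called higher in both (1.02 in TC32 and 1.46 in SKNMC). Of all genes, 3.91% were called lower and 2.56% higher in TC32. In SKNMC these shares were 5.64% and 3.44%. The CD68 call was lost in TC32 without TC32 NU7441 replicate 3 (0.64) and without normalization between arrays (0.51), and in SKNMC with replicate 1 as the only treated array (1.04, adjusted p = 0.0993). The part of leukocyte transcripts in the ITGB2 result was not tested beyond these values.

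ITGB1, the most widely paired beta subunit, was called in neither line. Its level was 10.00, 9.57 and 9.53 in SKNMC NU7441, against 10.25, 10.19 and 10.32 in SKNMC vehicle. In TC32 it was 10.22, 10.39 and 10.40 under NU7441, against 10.51, 10.56 and 10.53 under vehicle. The treated arrays lay below the vehicle arrays in both lines. The log2 fold change was −0.55 ± 0.14 in SKNMC (95% confidence interval −0.86 to −0.25, limma adjusted p = 0.00906), past the p threshold but too small for a call, and −0.20 ± 0.14 in TC32 (95% confidence interval −0.50 to 0.11, adjusted p = 0.350). With replicate 1 as the only treated SKNMC array it was −0.25 (adjusted p = 0.410), and without it −0.70. In TC32 it was −0.23 without TC32 NU7441 replicate 3, and −0.67 to −0.14 over all alternative settings, with no call. The mean deposited intensity was 1187 under NU7441 and 1835 under vehicle in TC32, and 842 and 1273 in SKNMC. Without normalization between arrays, the TC32 response minus the SKNMC response was −0.0013, where the median of all genes was −0.19. In the main fit these values were 0.35 and −0.003. How much less ITGB1 changed in TC32 therefore depended on the normalization, while ITGB1 lay above the median of all genes in both settings. The second detected ITGB1 probe gave −0.58 ± 0.26 (adjusted p = 0.111) and −0.13 ± 0.26 (adjusted p = 0.792), and the other 2 ITGB1 probes were detected on no array.

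ITGB7, which in lymphocytes serves homing to the gut, was detected on all 12 arrays with intensities of 82.1 to 121, near the lowest detected intensities of 79.9 to 84.8. Its level was 4.91, 4.52 and 4.73 in SKNMC NU7441, against 5.25, 5.17 and 5.56 in SKNMC vehicle. In TC32 it was 5.31, 5.36 and 5.99 under NU7441, against 5.68, 5.55 and 5.73 under vehicle. The SKNMC groups did not overlap, while the TC32 groups did, with TC32 NU7441 replicate 3 the highest of all 12 arrays. The deposited intensities did not overlap, at 94.4 to 108.4 in TC32 NU7441, against 112.4 to 121.3 in TC32 vehicle. These are not corrected for differences between arrays. The mean intensity of all probes was 158 to 184 on the TC32 NU7441 arrays, against 197 to 199 on the TC32 vehicle arrays. The log2 fold change was −0.61 ± 0.18 in SKNMC (95% confidence interval −1.003 to −0.21, limma adjusted p = 0.0222), too small for a call, and −0.10 ± 0.18 in TC32 (95% confidence interval −0.49 to 0.30, adjusted p = 0.762). Replicate 1 alone gave −0.42 in SKNMC (adjusted p = 0.353), and without it the change was −0.70. Without TC32 NU7441 replicate 1 or replicate 2, the TC32 value was 0.0224 or 0.000303, and without replicate 3 it was −0.32 (adjusted p = 0.171).

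**Figure D2:**
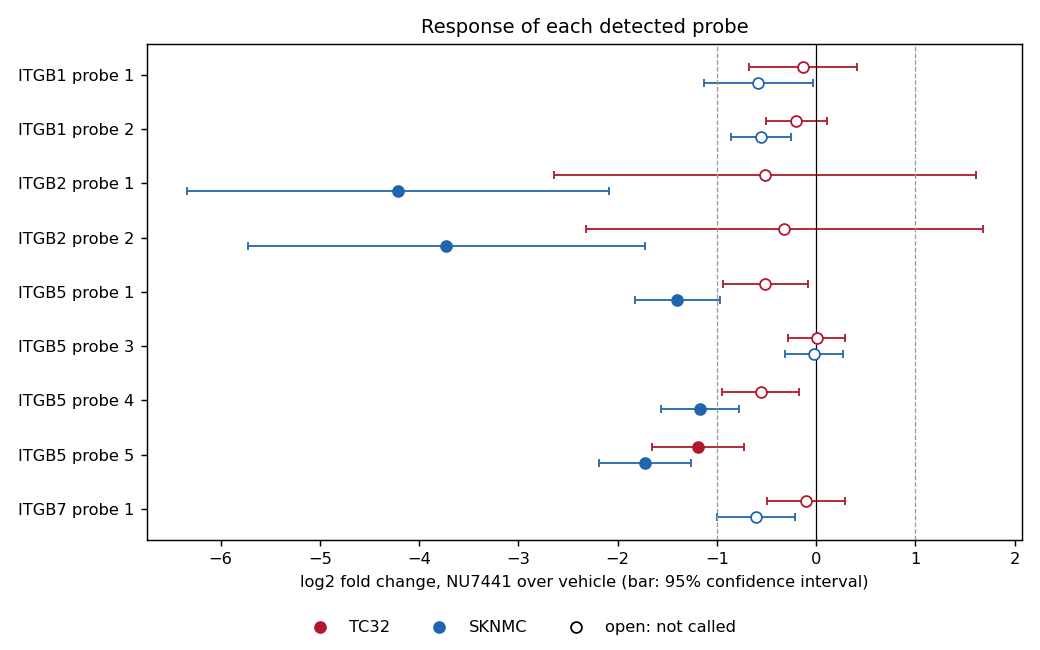
Log2 fold change of NU7441 over vehicle for each of the 9 detected probes, in TC32 (upper point of each pair) and SKNMC (lower point), with 95% confidence intervals. Filled points were called, and dashed lines mark the fold minimum of 1. Both ITGB2 probes and 3 ITGB5 probes were called lower in SKNMC, and 1 ITGB5 probe in TC32.

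Of the 4 detected genes, 0 were called in TC32, where 3.91% of all genes were called lower and 2.56% higher. In SKNMC 2 of 4 were called lower and 0 higher, where 5.64% of all genes were called lower and 3.44% higher. The median log2 fold change of the 4 was −0.26 in TC32 and −1.003 in SKNMC, and that of all genes was 0.00 in both lines. Every treated array lay below every vehicle array for 4 of 4 genes in SKNMC, where this held for 25% of all genes, and for 2 of 4 in TC32, ITGB1 and ITGB5, where it held for 20.3%.

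The response in TC32 minus the response in SKNMC was above 0 for all 4 genes, with a median of 0.70, and 0 were called, where 1.32% of all genes were called higher and 0.526% lower. It was 0.35 ± 0.20 for ITGB1 (limma adjusted p = 0.390), 0.51 ± 0.26 for ITGB7 (adjusted p = 0.336), 0.89 ± 0.28 for ITGB5 (adjusted p = 0.116) and 3.40 ± 1.33 for ITGB2 (adjusted p = 0.199). The 95% confidence interval was 0.28 to 1.49 for ITGB5 and 0.55 to 6.25 for ITGB2. Without SKNMC NU7441 replicate 1, ITGB5 (1.17) and ITGB2 (5.13) were called, and with it as the only treated SKNMC array the values were 0.33 and −0.06. With array weights, which count arrays that deviate less from the model more strongly, both were also called (1.06 and 4.86). In these settings more genes were called in general, with 4.30% of all genes called higher without that array and 4.87% with array weights.

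Under vehicle, none of the 4 genes was called different between TC32 and SKNMC. TC32 minus SKNMC was 0.28 ± 0.14 for ITGB1 (limma adjusted p = 0.214), 0.83 ± 0.94 for ITGB2 (adjusted p = 0.638), 0.06 ± 0.20 for ITGB5 (adjusted p = 0.896) and 0.33 ± 0.18 for ITGB7 (adjusted p = 0.279). Over all genes, 1.37% of all genes were called higher in TC32 and 2.88% lower. ITGB2 read 11.45 to 12.01 in TC32 vehicle, against 10.85 to 11.002 in SKNMC vehicle, without overlap. In a fit of the vehicle arrays alone its difference of 0.83 ± 0.15 had an adjusted p of 0.000866, still under the fold minimum. From low to high, the group means ran SKNMC NU7441, SKNMC vehicle, TC32 NU7441, TC32 vehicle for ITGB1, ITGB2 and ITGB7, and SKNMC NU7441, TC32 NU7441, SKNMC vehicle, TC32 vehicle for ITGB5. Neighbours in this order overlapped in several places. SKNMC vehicle and TC32 NU7441 did so for ITGB1 (10.19 to 10.32 and 10.22 to 10.40) and ITGB7 (5.17 to 5.56 and 5.31 to 5.99). TC32 NU7441 and TC32 vehicle did so for ITGB2 and ITGB7, and SKNMC vehicle and TC32 vehicle did so for ITGB5 (8.75 to 8.95 and 8.88 to 8.98).

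ITGB3, which serves platelets and endothelium with ITGA2B or ITGAV, was detected on no array, with intensities of 72.2 to 80.8. ITGB6 and ITGB8, which with ITGAV release active TGF-beta, were detected on no array, with 69.9 to 76.8 and 70.0 to 79.5. Of the 4 ITGB4 probes, 1 was detected on 1 array, SKNMC NU7441 replicate 1, with an intensity of 84.5, and the ITGB4 intensities ranged from 72.0 to 84.5. All of these lay at the level of the lowest detected intensities, so their signal is bounded by about 79.9 to 84.8 in every group and no fold change is given. Markers of the cell types that are known for these subunits were detected in part. Of 13 epithelial markers 6 were detected and of 14 platelet and endothelial markers 3, and of all 20045 genes with a probe 12171. EPCAM, KRT18, ESRP1 and ELF3 were detected on all 3 SKNMC vehicle arrays, at low levels (means of 4.60 to 5.80). CDH1, KRT5, KRT7, KRT14, CLDN7 and SFN were detected on no array. EPCAM and ESRP1 were detected on no SKNMC NU7441 array, at least 1.69-fold and 1.09-fold lower than under vehicle, and were not called. In these lists 1 gene was called, the keratin KRT18, at −1.18 ± 0.28 in SKNMC (limma adjusted p = 0.00629). There 5.64% of all genes were called lower. With replicate 1 as the only treated SKNMC array the KRT18 change was −0.89, and without that array it was −1.32, with 2 epithelial genes called lower. Without normalization between arrays KRT18 was also called lower in TC32 (−1.03).

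**Figure D3:**
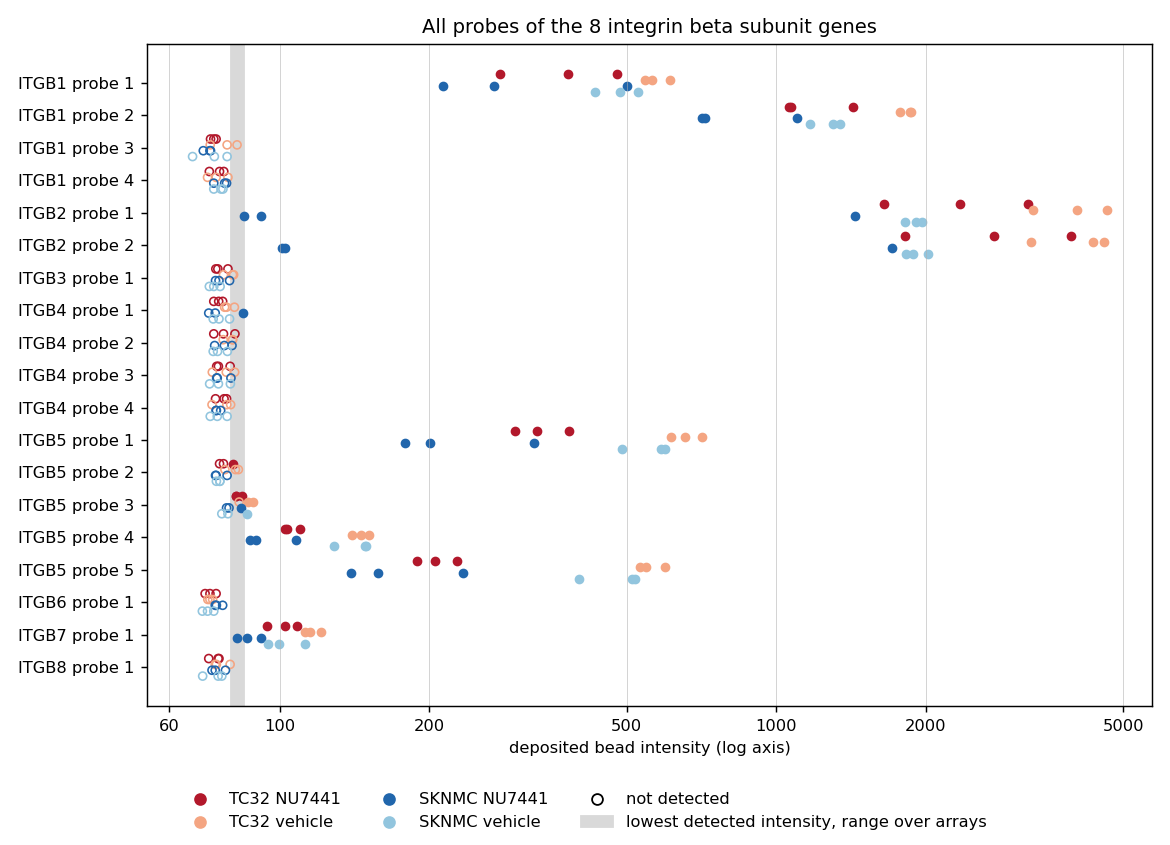
Deposited bead intensity (log axis) of all 19 probes of the 8 genes on each of the 12 arrays, coloured by group, with filled points where the probe was detected. The grey band spans the lowest detected intensity of each array, 79.9 to 84.8, and the probes of ITGB3, ITGB4, ITGB6 and ITGB8 lie in or below it, the 1 detected ITGB4 point at 84.5 included.

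Of 18 alpha subunit genes, 8 were detected, and 1 was called lower in TC32 and 0 in SKNMC, with medians of −0.17 and −0.15. Of all genes, 3.91% were called lower in TC32 and 5.64% in SKNMC. ITGA5, which pairs with ITGB1 as the fibronectin receptor, was the one called. Its level was 4.75, 4.96 and 5.51 in TC32 NU7441, against 5.93, 6.04 and 6.43 in TC32 vehicle. The change was −1.06 ± 0.20 (limma adjusted p = 0.00189), and in SKNMC it was −0.59 ± 0.20 (adjusted p = 0.0377), too small for a call. Replicate 1 alone gave −0.83 in SKNMC (adjusted p = 0.0716), and without it −0.48 (adjusted p = 0.0900). The difference of the responses, TC32 minus SKNMC, was −0.47 ± 0.29 and was not called (adjusted p = 0.432).

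ITGAV, the partner of ITGB5, read 6.92, 6.89 and 7.59 in TC32 NU7441, against 7.64, 7.52 and 7.92 in TC32 vehicle. In SKNMC it read 7.35, 7.51 and 7.51 under NU7441, against 7.39, 7.42 and 7.70 under vehicle. Its groups overlapped in both lines, with changes of −0.55 ± 0.19 in TC32 (limma adjusted p = 0.0413, too small a fold for a call) and −0.05 ± 0.19 in SKNMC (adjusted p = 0.869). Without normalization between arrays ITGAV was called lower in TC32 (−1.06). In SKNMC, where ITGB5 was called lower, the change of ITGAV had a 95% confidence interval of −0.45 to 0.35. ITGA4, a partner of ITGB1 and ITGB7, was detected on all 3 SKNMC vehicle arrays and on no SKNMC NU7441 array, which bounds it as at least 1.42-fold lower (limma adjusted p = 0.0196, not called). ITGAE, the other ITGB7 partner, gave −0.15 ± 0.14 in TC32 and −0.21 ± 0.14 in SKNMC.

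**Figure D4:**
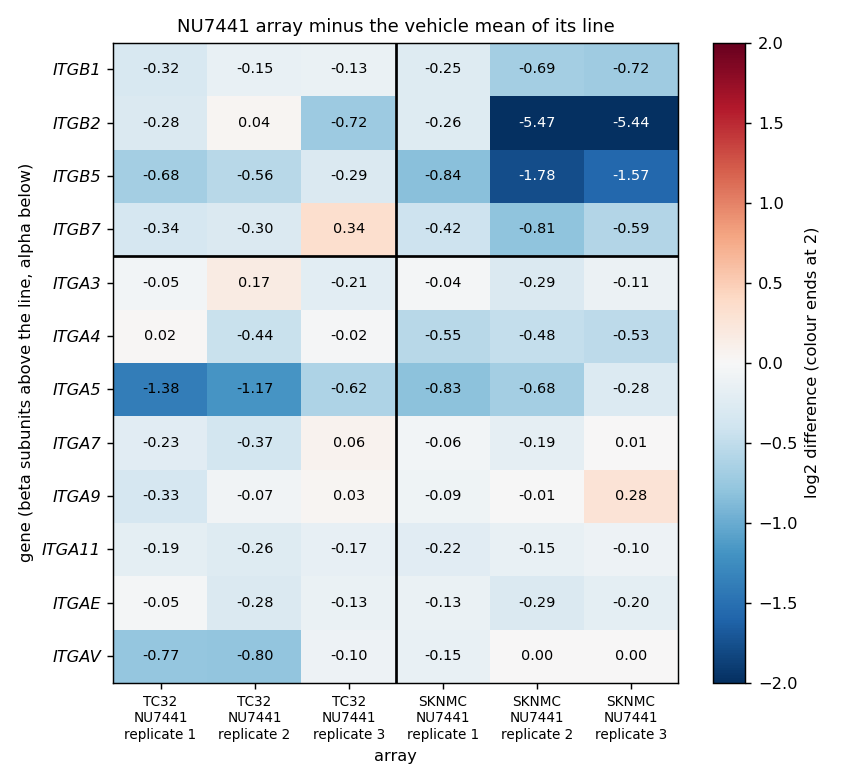
Log2 difference of each NU7441 array from the vehicle mean of its line, for the 4 detected beta subunit genes (above the line) and the 8 detected alpha subunit genes (below it). ITGB2 read −0.26 on SKNMC replicate 1 and −5.47 and −5.44 on replicates 2 and 3, and the alpha subunit ITGA5 read −1.38, −1.17 and −0.62 on the TC32 arrays.

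Among 44 genes for proteins that bind beta subunit tails or build the adhesion complex, 35 were detected. In SKNMC 8 were called lower and 0 higher, with a median of −0.19, where 5.64% of all genes were called lower. In TC32 1 was called lower and 0 higher, with a median of −0.11, where 3.91% of all genes were called lower. FHL2, a LIM protein that binds integrin tails, was the one called in both lines. Its level was 6.97, 6.61 and 6.69 in TC32 NU7441, against 8.03, 7.64 and 8.25 in TC32 vehicle, a change of −1.21 ± 0.18 (limma adjusted p = 0.000365). In SKNMC it was 5.44, 4.99 and 4.88 under NU7441, against 7.52, 7.63 and 7.41 under vehicle, a change of −2.41 ± 0.18 (adjusted p = 1.18e-06). All treated arrays, SKNMC replicate 1 included, lay below all vehicle arrays.

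The other largest falls in SKNMC were FERMT1 (−1.93 ± 0.28), a kindlin that activates integrins, DAB2 (−1.61 ± 0.31), an endocytic adaptor of integrins, and TNS3 (−1.57 ± 0.24), a tensin that joins beta tails to actin. PARVA, LIMS2, VCL and FERMT2 were called lower as well. LIMS2 was detected on no SKNMC NU7441 array and was at least 2.11-fold lower there than under vehicle. With replicate 1 as the only treated SKNMC array, the median of the list in SKNMC was −0.19 and that of all genes −0.02. Without that array 9 of the list were called lower in SKNMC. Without SKNMC NU7441 replicate 1, 7.45% of all genes were called lower in SKNMC. Without normalization between arrays, 6 of the list were called lower in TC32, where 10.7% of all genes were.

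Of 35 matrix ligands of integrins, 21 were detected. In SKNMC 5 were called lower and 0 higher, with a median of −0.62, where 5.64% of all genes were called lower. In TC32 1 was called lower and 0 higher, with a median of −0.21, where 3.91% of all genes were called lower. COL3A1, a fibrillar collagen, read 5.88, 5.22 and 5.35 in TC32 NU7441, against 9.11, 8.73 and 8.90 in TC32 vehicle. In SKNMC it read 6.47, 6.60 and 6.40 under NU7441, against 7.72, 8.30 and 8.41 under vehicle. It fell on every treated array of both lines, by −3.43 ± 0.20 in TC32 (limma adjusted p = 7.95e-08) and −1.65 ± 0.20 in SKNMC (adjusted p = 6.45e-05).

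TGFBI, a matrix protein induced by TGF-beta, read 10.89, 5.07 and 4.60 in SKNMC NU7441, against 10.96, 11.05 and 10.998 in SKNMC vehicle. CCN2, a matricellular ligand of several integrins, read 8.41, 4.58 and 4.68 in SKNMC NU7441, against 9.48, 9.57 and 9.71 in SKNMC vehicle. Both were called lower (−4.15 ± 1.09 and −3.70 ± 0.84) and split by array as ITGB2 did, with replicate 1 just below the vehicle arrays for TGFBI and 1.17 below their mean for CCN2. CCN1 and LAMA5 were the other matrix ligands called. With replicate 1 as the only treated SKNMC array, the median of the matrix ligands in SKNMC was −0.17 and that of all genes −0.02. Without that array 6 matrix ligands were called lower in SKNMC. In TC32 the count was 3 both without SKNMC NU7441 replicate 1 and with it as the only treated SKNMC array, with TGFBI and CCN2 called beside COL3A1. The SE of CCN2 was then 0.50 and 0.53, against 0.84 with all arrays. The TC32 count was 2 without TC32 NU7441 replicate 3 and 3 without normalization between arrays. Of all genes, 7.45% were called lower in SKNMC without SKNMC NU7441 replicate 1. In TC32 the share was 4.02% without that array, 3.96% without TC32 NU7441 replicate 3 and 10.7% without normalization between arrays.

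Of 11 cell-surface ligands, 5 were detected, and VCAM1, which binds ITGA4 with ITGB1 or ITGB7, was the one called lower in SKNMC, at −1.87 ± 0.20 (limma adjusted p = 1.81e-05). It read 5.54, 4.78 and 4.61 in SKNMC NU7441, against 7.04, 6.75 and 6.74 in SKNMC vehicle, and was not detected in TC32 vehicle, at least 5.21-fold lower than in SKNMC vehicle. Of 9 latent TGF-beta genes, 4 were detected, and TGFB2 was called lower in SKNMC, where it was detected on no NU7441 array and was at least 2.01-fold lower than under vehicle. Of 9 hemidesmosome genes, the setting of ITGB4, 3 were detected and 0 were called in either line. Beside these lists, 5.64% of all genes were called lower in SKNMC and 3.91% in TC32.

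**Figure D5:**
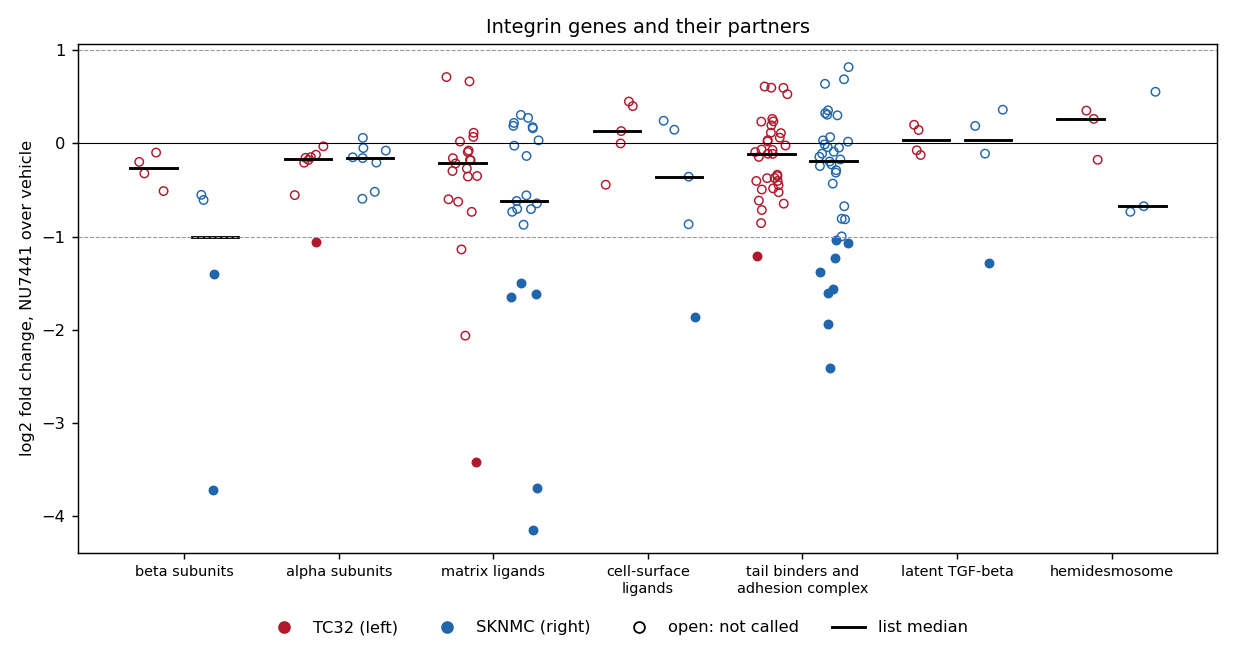
Log2 fold change of NU7441 over vehicle for the detected genes of each list, in TC32 (left of each pair) and SKNMC (right), with list medians as black bars and filled points where a gene was called. The adhesion complex list holds 8 filled points in SKNMC and 1 in TC32, and the alpha subunits hold 0 and 1. Over all genes, 5.64% were called lower in SKNMC and 3.91% in TC32.

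By Pearson correlation of log2 levels over the 12 arrays, the genes most like ITGB1 were PRR5L (0.992), ADGRG2 (0.984) and TPM2 (0.983). Those most like ITGB2 were CES1 (0.992), HCLS1 (0.991) and HAND2 (0.989). For ITGB5 they were SCRN1 (0.978), ACKR3 (0.975) and LIPI (0.972), and for ITGB7 DHODH (0.955), FAT1 (0.945) and ZMYND11 (0.941). Among themselves the 4 beta subunit genes correlated at 0.78 (ITGB2 with ITGB7) to 0.93 (ITGB1 with ITGB2). These correlations describe 12 arrays that fall into 4 groups and share the low SKNMC NU7441 replicates 2 and 3, and they carry no test.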

How the data were processed

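RNA of 12 samples was measured on Illumina BeadChips. Bead intensity before normalization and a detection p-value were deposited for each of 47319 probes on each array, per the file headers. A further deposited table holds log2 values, made with GenomeStudio, R 3.0.2 and lumi per the submitters' processing notes, which was used as an alternative. Its medians differ by line, as after a separate normalization of each line.

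Intensities were background-corrected (normexp, offset 16), quantile-normalized and log2-transformed with neqc in limma 3.58.1 (R 4.3.3), which hides any change shared by most transcripts. Probes detected at a p-value under 0.05 on at least 3 of 12 arrays were kept (21753), and the brightest stood for each of 12171 genes. One limma model with a mean per group, checked on simulated data, gave all contrasts, with two-sided moderated tests and Benjamini-Hochberg adjustment over all genes. Calls were made at an adjusted p under 0.05 with a log2 fold change of at least 1 in size. The simulated data had the same spread in all genes and groups, so the check does not cover unequal spreads such as those of ITGB2. The number of arrays limits the precision.

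Probe symbols came from the platform annotation, updated through RefSeq names (30112 probes had 1 symbol, 8 several and 17199 none). Groups came from the sample titles. There were 0 columns left unused and 0 pairs of identical arrays. A gene detected on no array of a group gives only a bound, against the lowest detected signal. Alternatives changed the background, normalization, filter, probe, moderation, weights, arrays and pairing. The members and gene lists were chosen with earlier results of these data known. Genes were named as all members, up to 4 called genes of the largest change per list, the 3 genes most correlated with each member, and CES1 and RNA28SN5; others are counted or were named after their values were seen.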

Additional observations from a re-analysis of the deposited data

Results flagged for a closer look

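For 6 partner or marker genes the response in TC32 minus that in SKNMC was itself past the threshold, by limma with adjustment over all genes. The difference was 2.01 for CD79A (adjusted p = 8.96e-05), a B-cell receptor component, which was called lower in SKNMC (−1.86). CD79A read 4.80 to 5.01 in TC32 NU7441, against 4.69 to 4.90 in TC32 vehicle. These TC32 levels lay little above the detection limit, where a fall of the size seen in SKNMC could not be measured. The difference was −1.78 for COL3A1 (adjusted p = 0.0054), which was called lower in both lines and by more in TC32. It was 1.20 for FHL2 (adjusted p = 0.0294), which was called lower in both lines and by more in SKNMC. It was 1.87 for VCAM1 (adjusted p = 0.00317), 1.21 for TGFB2 (adjusted p = 0.00948) and 1.14 for LIMS2 (adjusted p = 0.0172). All of these lay near the detection limit in TC32 (4.11 to 4.78), where a fall could hardly be measured. TGFB2 and LIMS2 were also detected on no SKNMC NU7441 array. Their fall in SKNMC is therefore only bounded, at 2.01-fold and 2.11-fold or more. With replicate 1 as the only treated SKNMC array, a group of 1 whose spread is assumed to be that of the other groups, the differences were 1.79 for CD79A, −1.76 for COL3A1 and 1.30 for VCAM1, which passed the threshold, and 0.87 for FHL2, 1.11 for TGFB2 and 1.09 for LIMS2, which did not.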

How the results depend on the processing

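Over the planned settings for single members, 376 values kept their direction and side of the threshold, 6 came to pass it, 2 ceased to and 4 changed sign. In TC32 the number of members called was 0, and 1 (ITGB5) without normalization between arrays or with median scaling. In SKNMC it was 2, and 0 with replicate 1 as the only treated array. For the difference of responses it was 0, and 2 (ITGB2 and ITGB5) with array weights. Leaving out each array in turn gave 0 to 0 members in TC32, 2 to 2 in SKNMC, 0 to 2 for the difference (2 without SKNMC NU7441 replicate 1) and 0 to 0 between the lines under vehicle.

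Values that changed sign were all close to 0 in the setting concerned, but not all in the main fit. The sign changed for ITGB7 in TC32, at 0.0224 and 0.000303 without TC32 NU7441 replicate 1 or 2 (−0.32 to 0.0224 over all arrays left out in turn). The ITGB1 difference went from 0.35 to −0.0013 without normalization between arrays, where the median of all genes was −0.19. With replicate 1 as the only treated SKNMC array, the ITGB2 difference went from 3.40 to −0.0604. The second ITGB2 and ITGB5 probes gave differences of −0.0036 and −0.0062 in that last setting, and the second ITGB5 probe gave −0.10 between the lines without SKNMC vehicle replicate 3 (−0.10 to 0.18 over all arrays left out in turn). Settings for the second probes, and the normalization and replicate settings for the gene lists, were added after the data were seen. The causes were not tested.

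Same-numbered arrays of the groups of a line share a number, and the labels do not say whether they share more. Their deviations from the group means correlated at −0.06 to 0.06. With 3 arrays per group and the splits among treated arrays, this cannot exclude a pairing. With that number as a replicate block the counts were 0 in TC32, 2 in SKNMC and 0 for the difference, and no call changed. The lines share no block, so the line comparison was not fitted with it, nor with the submitters' table. The 3 arrays per group, and the small distance of ITGB7 to the detection limit, restrict what could be detected.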
